A study of Mus musculus with 16 samples.

Results

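The genes of the pre-TCR and of the signalling steps next to it were followed in DN3 thymocytes, in which this receptor is first assembled. The set was given by name and holds 9 of the 22114 protein-coding genes in each count table: *Ptcra*, *Cd3g*, *Cd3d*, *Cd3e*, *Cd247*, *Lck*, *Zap70*, *Lat* and *Lcp2*. All 9 passed the filter on low counts in both experiments. In the first experiment, total DN3 thymocytes (CD4-CD8-CD25+CD44-) came from 6-week-old mice on a C57BL/6 background that were wild-type (WT, 3 libraries), *p21*-/- (2), *Lmo2*Tg (2) or *Lmo2*Tg;*p21*-/- (2). *p21*-/- mice lack the cell cycle inhibitor p21, the product of *Cdkn1a*, and *Lmo2*Tg mice carry the T-cell oncogene *Lmo2* under CD2 regulatory sequences, which act in T-lineage cells from early stages on. In the second experiment, all mice carried the *Lmo2* transgene together with an inducible *H2B-GFP*, a histone fused to GFP. These mice were on the C57BL/6 background as well. Their age is given as 6 weeks in the study's methods for RNA and as 2 months in a supplementary figure legend. Doxycycline was given for 6 weeks and then withdrawn for a chase of 2 weeks. DN3 cells that had kept the label (GFPhi, cell cycle-restricted) were sorted apart from those that had diluted it by division (GFPlo), with 3 libraries each. Every library was made from cells pooled from 3 to 5 mice, so a value is an average over animals. The sorted libraries came from 3 independent cohorts of mice per the study's text, which was not stated for the genotype libraries. The columns used as *Lmo2*Tg were matched by a name that also equals the short description of 2 GFPlo samples. They hold 14003156 and 15176210 counts against 28436894 and 31106213 in those GFPlo libraries, and 96.2% and 96.1% of the genes with at least 100 counts there had a lower count, so they are not the same counts.

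The pre-TCR is the receptor that a thymocyte builds once it has made a TCR beta chain. The invariant pre-T alpha chain (*Ptcra*) pairs with TCR beta, and the CD3 gamma, delta, epsilon and zeta chains carry the signal inward through tyrosine motifs. The kinase Lck phosphorylates these motifs, ZAP-70 docks on them, and ZAP-70 then phosphorylates the adaptors LAT and SLP-76 (*Lcp2*), on which the downstream complexes assemble. In normal thymus this signal is the checkpoint that takes DN3 cells into proliferation and on to the CD4+CD8+ stage. LMO2 binds no DNA itself and joins complexes with basic helix-loop-helix factors, whose binding sequence is the E-box.

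The 250 bases before the RefSeq start of the 5 members whose levels differed most in relative terms between *Lmo2*Tg and WT are given here, because the CD3 genes lie side by side and the E-box is the sequence bound by factors that LMO2 joins. All 9 members matched an entry. They were read 5′ to 3′ along the gene's strand from RefSeq (GRCm38.p6), and capitals mark each E-box, searched as CANNTG, which reads alike on both strands. The windows are chr17:46763713-46763962 for *Ptcra* (minus strand), chr9:44980432-44980681 for *Cd3g* (minus), chr9:44981536-44981785 for *Cd3d* (plus), chr9:45009612-45009861 for *Cd3e* (minus) and chr1:36761548-36761797 for the first of 3 listed starts of *Zap70* (plus).
Ptcra: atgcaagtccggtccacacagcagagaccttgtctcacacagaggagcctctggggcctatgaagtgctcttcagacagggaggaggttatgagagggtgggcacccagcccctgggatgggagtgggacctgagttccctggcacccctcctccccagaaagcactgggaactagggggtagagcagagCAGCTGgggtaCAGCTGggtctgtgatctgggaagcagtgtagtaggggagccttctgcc
Cd3g: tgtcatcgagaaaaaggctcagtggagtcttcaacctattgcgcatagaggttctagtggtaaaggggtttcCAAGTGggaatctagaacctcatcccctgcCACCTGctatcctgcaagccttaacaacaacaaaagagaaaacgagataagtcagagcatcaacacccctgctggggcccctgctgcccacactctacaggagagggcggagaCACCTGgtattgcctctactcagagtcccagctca
Cd3d: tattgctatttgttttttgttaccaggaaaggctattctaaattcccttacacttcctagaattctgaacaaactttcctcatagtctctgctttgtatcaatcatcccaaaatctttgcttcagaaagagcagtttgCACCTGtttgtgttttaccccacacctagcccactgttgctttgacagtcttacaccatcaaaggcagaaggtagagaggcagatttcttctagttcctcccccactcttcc
Cd3e: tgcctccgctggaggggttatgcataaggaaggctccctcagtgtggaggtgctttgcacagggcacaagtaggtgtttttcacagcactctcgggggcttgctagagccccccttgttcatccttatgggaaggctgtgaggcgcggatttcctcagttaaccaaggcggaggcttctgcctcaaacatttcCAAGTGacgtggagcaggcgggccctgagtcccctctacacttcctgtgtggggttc
Zap70: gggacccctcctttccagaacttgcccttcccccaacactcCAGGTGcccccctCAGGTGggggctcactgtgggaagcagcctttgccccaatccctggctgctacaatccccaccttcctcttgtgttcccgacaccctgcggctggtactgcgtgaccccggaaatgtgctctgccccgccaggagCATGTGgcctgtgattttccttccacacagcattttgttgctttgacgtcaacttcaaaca

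*Ptcra* held 2 E-boxes, both CAGCTG, 5 bases apart. A window of this length held CAGCTG at least once in 13.0% of all 32851 RefSeq windows, and at least 2 times in 1.26%. *Cd3g* held 3 E-boxes, of which 2 were CACCTG, and *Zap70* held 3, of which 2 were CAGGTG, which is CACCTG read on the other strand. At least 1 copy of CAGGTG or CACCTG was present in 17.2% of all windows, at least 2 in 2.06%, and at least 3 E-boxes of any kind in 12.2%. *Cd3d* and *Cd3e* held 1 E-box each, and 66.2% of all windows held at least 1. Of the windows not shown, that of *Lcp2* held 1 E-box, a CAGCTG. Those of *Cd247* and *Lat*, whose levels did not pass the test, held 2 E-boxes each. The windows of *Lck* held 0 and 1, and the other 2 starts of *Zap70* held 1 each. These matches describe the letters only, since no binding was measured.

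The members lie on 6 chromosomes (GRCm38, GENCODE M21). *Cd3g* (chromosome 9, 44969572 to 44980431, minus strand), *Cd3d* (44981786 to 44987339, plus strand) and *Cd3e* (44998740 to 45009627, minus strand) form a cluster of 40.1 kb, with 1354 bases between *Cd3g* and *Cd3d* and 11400 between *Cd3d* and *Cd3e*. *Ptcra* lies on chromosome 17 (46755663 to 46763712), 17.7 Mb from *Cdkn1a*, the gene targeted in *p21*-/- mice. *Cd247* and *Zap70* lie on chromosome 1 (165788681 to 165877277 and 36761798 to 36782818), *Lck* on 4 (129548344 to 129573641), *Lat* on 7 (126363824 to 126369570) and *Lcp2* on 11 (34046920 to 34092295). The counts of *Cd247* are uncertain, since 3007 bases of its exons overlap those of *Pou2f1* on the opposite strand. *Lcp2* shares 282 exonic bases with 4930469K13Rik and *Cd3e* 135 with Gm48719, both on the opposite strand.

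Total counts ranged from 13864936 to 16837667 in the 9 genotype libraries and from 26861394 to 31106213 in the 6 sorted libraries. A level of 3 counts corresponded to at most 0.222 CPM and 0.112 CPM, respectively, and values below these rest on fewer counts. *Lmo2* lay between 0.0636 and 0.306 CPM in the 5 libraries without the transgene and between 41.4 and 107 CPM in the 4 with it. *Cdkn1a* was at 36.5, 37.5 and 49.0 CPM in WT libraries, at 14.3 and 17.7 in *p21*-/- libraries, at 32.8 and 26.3 in *Lmo2*Tg libraries and at 4.35 and 3.50 in *Lmo2*Tg;*p21*-/- libraries. The targeted gene was thus lower but not absent in the libraries labelled *p21*-/-, and the part of it that the allele removes is not given in the sources used here. The DN3 markers *Il2ra*, *Thy1*, *Rag1*, *Notch1* and *Dntt* were abundant in every library, and the summed level of 9 DN3 markers ranged from 6379 to 9707 CPM. *Rag2*, also among the 9, was far lower, with means of 14.35 CPM in *Lmo2*Tg and 72.3 CPM in WT libraries. The genes of the TCR constant chains are not analysed here. In the genotype table, 2 libraries stood apart. WT replicate 3 held the highest or lowest value of the 9 libraries for 40.8% of all genes and the highest for 7 of the 9 members, and *Lmo2*Tg;*p21*-/- replicate 1 held an extreme value for 41.1% of all genes and for 6 members. The other libraries held one for 9.4% to 25.3% of all genes.

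In WT DN3 thymocytes, levels per kilobase of exon (RPKM) differed widely between members. *Lck* was highest at 412 ± 23.2 RPKM (mean ± SD, n = 3), followed by *Cd3g* at 340 ± 33.9, *Lat* at 207 ± 16.7 and *Cd3d* at 189 ± 9.25. *Ptcra* (119 ± 22.8) and *Cd3e* (109 ± 5.40) came next, then *Lcp2* (50.7 ± 2.73), *Cd247* (37.4 ± 1.79) and *Zap70* (22.3 ± 1.44). The libraries of *Lat* and *Cd3d*, and those of *Ptcra* and *Cd3e*, overlapped, and the other neighbours in this order did not. *Zap70* was thus the least abundant member in WT cells. In *Lmo2*Tg DN3 thymocytes the order was *Lck* (318.5 RPKM), *Lat*, *Cd3d*, *Cd3g*, *Cd3e*, *Lcp2*, *Zap70*, *Cd247* and *Ptcra* (31.8). *Cd3g* stood at rank 2 in WT cells and at rank 4 in *Lmo2*Tg cells, and *Ptcra* at rank 5 and rank 9. Only *Cd247* and *Ptcra* overlapped as neighbours in the *Lmo2*Tg libraries.

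The comparison of *Lmo2*Tg with WT asks what the oncogene does in DN3 thymocytes before leukaemia. With the transgene, *Ptcra*, *Cd3g*, *Cd3e* and *Cd3d* were lower, the first pair the most, whereas *Zap70* was close to 2 times as high. Of the 9 members, 7 passed an adjusted p of 0.05 (edgeR quasi-likelihood test), 5 lower and 2 higher. Over all 11840 genes tested, 36.6% passed, 16.9% lower and 19.7% higher. An adjusted p under 0.05 together with a change of over 2-fold was met by 2 members and by 12% of all genes. Without WT replicate 3, the same 7 members passed, against 32.5% of all genes. The median log2 fold change of the members was -0.37. In bulk RNA, fewer cells of a type and less RNA per cell cannot be told apart.

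*Ptcra*, the pre-T alpha chain (ENSMUSG00000036858), was at 134, 137 and 186 CPM in the WT libraries and at 26.0 and 55.7 CPM in the *Lmo2*Tg libraries. The groups did not overlap, although the *Lmo2*Tg libraries differed from each other more than for any other member. The mean fell from 152.5 to 40.8 CPM, a log2 fold change of -1.90 (SE 0.29; edgeR adjusted p = 0.000616) or 3.72-fold lower. The estimate was -1.45 without the *Lmo2*Tg library numbered 2 in the table and -2.55 without the one numbered 3, and it passed the test in both cases. Relative to *Cd3e*, *Ptcra* gave 0.313 to 0.397 reads per read in WT libraries and 0.0884 to 0.179 in *Lmo2*Tg libraries.

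*Cd3g*, the CD3 gamma chain (ENSMUSG00000002033), was at 1032, 1062 and 1237 CPM in WT libraries and at 360 and 395 CPM in *Lmo2*Tg libraries. It was 2.94-fold lower (log2 fold change -1.56, SE 0.10; edgeR adjusted p = 1.82e-06). Among the members it had the smallest adjusted p in this comparison. Its neighbours in the cluster changed far less. *Cd3e*, the CD3 epsilon chain, was at 429, 433 and 469 CPM in WT and at 294.5 and 312 CPM in *Lmo2*Tg libraries (log2 fold change -0.55, SE 0.08; adjusted p = 0.000487). *Cd3d*, the CD3 delta chain, was at 350.1, 324 and 356 CPM in WT and at 257 and 264 CPM in *Lmo2*Tg libraries (-0.40, SE 0.07; adjusted p = 0.00176). The intervals of the 3 changes show the gap, with -1.78 to -1.33 for *Cd3g*, -0.73 to -0.37 for *Cd3e* and -0.56 to -0.24 for *Cd3d* (95% confidence).

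The ratio of *Cd3g* to *Cd3e* reads within a library, which no scaling between libraries can alter, was 2.41 to 2.64 in WT, 2.45 to 2.48 in *p21*-/-, 1.22 to 1.27 in *Lmo2*Tg and 1.14 in both *Lmo2*Tg;*p21*-/- libraries. The 4 transgenic libraries thus lay apart from the 5 others by a wide margin. The ratio of *Cd3d* to *Cd3e* was 0.749 to 0.817 in WT and 0.847 to 0.871 in *Lmo2*Tg libraries, so the epsilon and delta chains moved more nearly together. *Cd247*, the zeta chain, which lies outside the cluster and joins the complex last, did not pass the test (181 and 178 CPM against 190.3 to 209 CPM in WT; log2 fold change -0.15, interval -0.34 to 0.05).

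**Figure D1:**
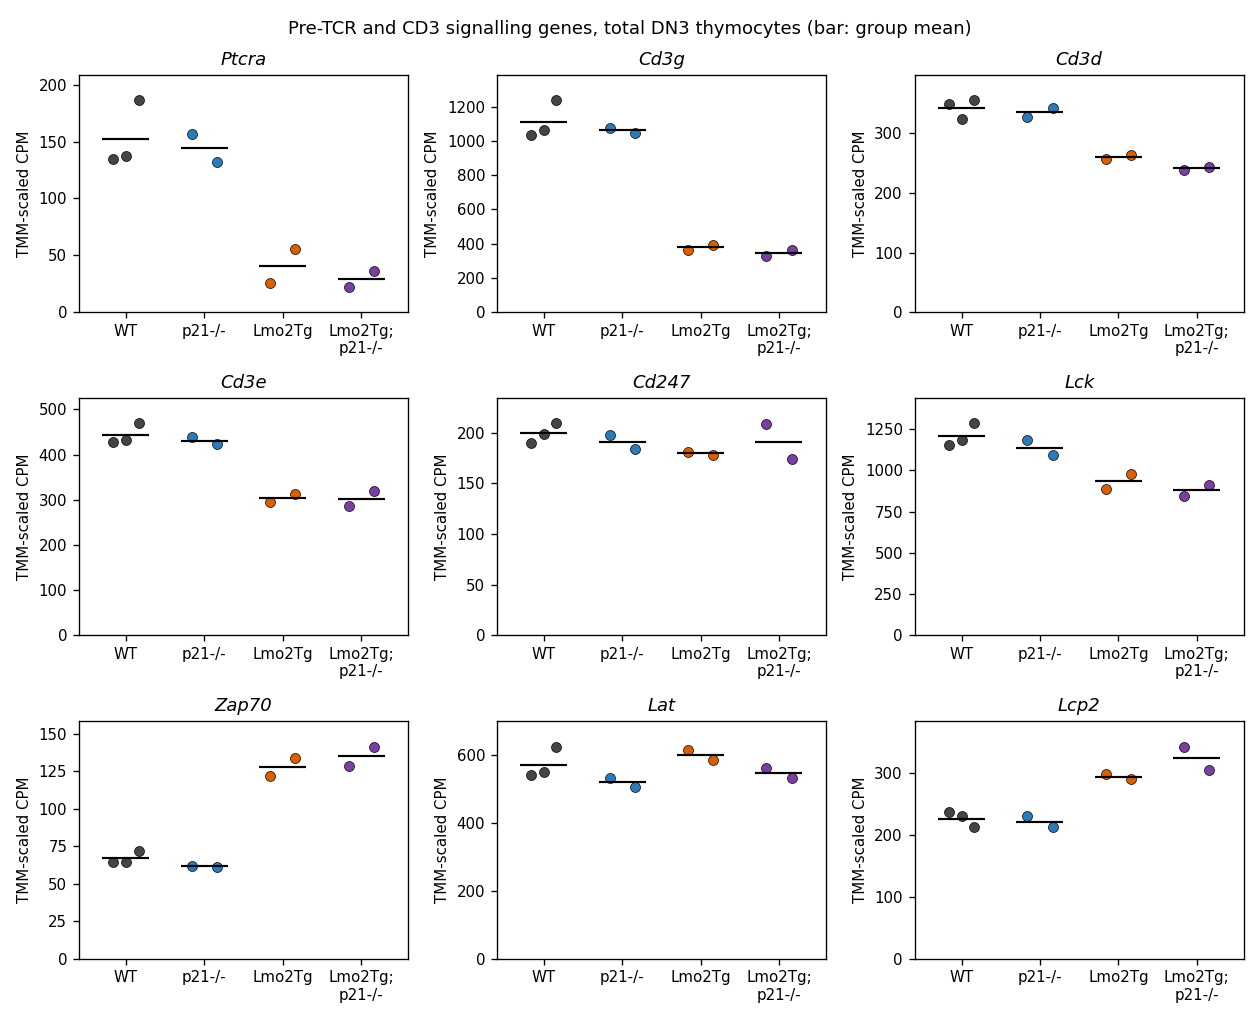
Levels of the 9 members (y axis, TMM-scaled CPM, from 0) in each total DN3 library by genotype (x axis). Each point is a library of pooled mice and each bar the group mean. *Ptcra* and *Cd3g* are lower and *Zap70* is higher in all 4 libraries with the *Lmo2* transgene than in any of the 5 without it.

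The kinases moved in opposite directions. *Lck*, the Src-family kinase that starts the signal, was at 1157, 1182 and 1285 CPM in WT and at 885 and 981 CPM in *Lmo2*Tg libraries (log2 fold change -0.37, SE 0.09; edgeR adjusted p = 0.00685). Without the *Lmo2*Tg library numbered 2 it did not pass (-0.30, adjusted p = 0.0822). *Zap70*, the kinase that docks on the phosphorylated CD3 chains, was at 64.3, 64.2 and 71.7 CPM in WT and at 122 and 133.5 CPM in *Lmo2*Tg libraries. It rose 1.91-fold (log2 fold change 0.94, SE 0.08; adjusted p = 1.29e-05). For each *Lck* read there were 0.0544 to 0.0558 *Zap70* reads in WT libraries and 0.136 to 0.138 in *Lmo2*Tg libraries.

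*Syk*, the relative of *Zap70* that early thymocytes also use, fell from a mean of 110.0 to 82.7 CPM (-0.41, SE 0.08; adjusted p = 0.00247). *Zap70* gave 0.5475 to 0.6915 reads per *Syk* read in WT and 0.530 to 0.5415 in *p21*-/- libraries, against 1.53 to 1.56 in *Lmo2*Tg and 1.27 to 1.51 in *Lmo2*Tg;*p21*-/- libraries. The balance of reads between these kinases therefore crossed from more *Syk* to more *Zap70*, and the groups with and without the transgene did not overlap. Levels per length cannot be read from these ratios, since the genes differ in exon length.

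Of the adaptors, *Lcp2* (SLP-76) was at 236, 229.7 and 212 CPM in WT and at 297.5 and 289 CPM in *Lmo2*Tg libraries (log2 fold change 0.38, SE 0.08; edgeR adjusted p = 0.00490). *Lat*, the membrane scaffold, was at 542 to 625.5 CPM in WT and at 615 and 586 CPM in *Lmo2*Tg libraries. Its change did not pass and was bounded within -0.11 to 0.25 on the log2 scale (95% confidence). The lower genes were thus *Ptcra*, the gamma, delta and epsilon chains of CD3 and *Lck*, and the higher ones *Zap70* and *Lcp2*.

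**Figure D2:**
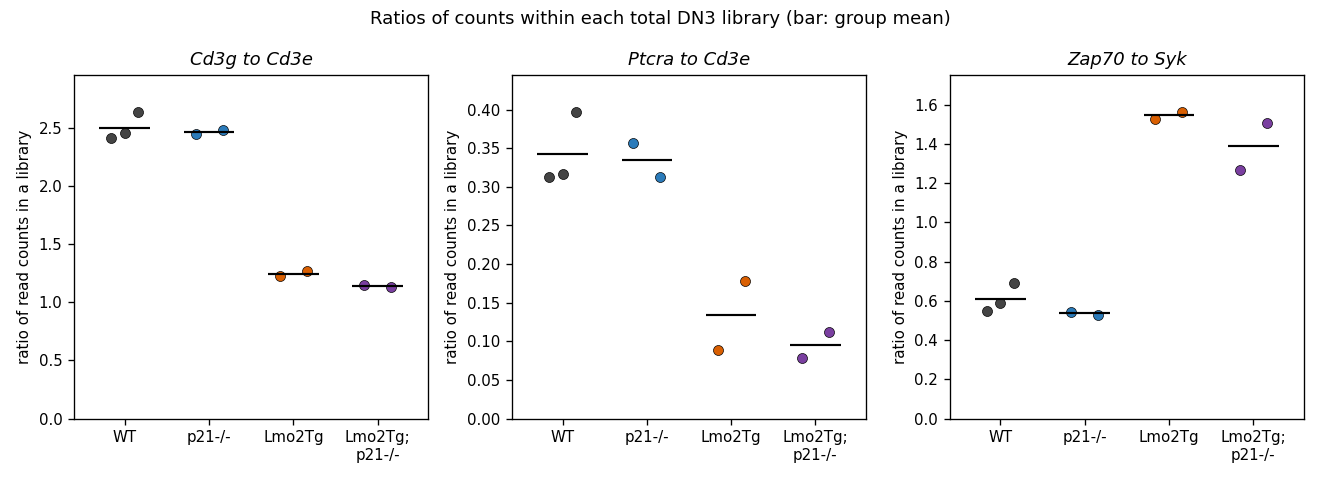
Ratios of read counts within each total DN3 library (y axes, from 0) for *Cd3g* to *Cd3e*, *Ptcra* to *Cd3e* and *Zap70* to *Syk*, by genotype (x axis). Points are libraries and bars group means. The *Cd3g* to *Cd3e* ratio is at least 2.41 in the 5 libraries without the transgene and at most 1.27 in the 4 with it.

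The same contrast can be read without p21, in *Lmo2*Tg;*p21*-/- against *p21*-/- libraries. It shares no library with the comparison above, although all 9 libraries share an estimate of the spread. The same 7 members passed in the same directions, and 30.7% of all genes tested did (14.4% lower, 16.3% higher). With a change of over 2-fold also asked for, 3 members and 10.4% of all genes passed. Without *Lmo2*Tg;*p21*-/- replicate 1, 6 members passed, *Lck* being the one lost, against 15.8% of all genes. *Ptcra* was at 157 and 132 CPM in *p21*-/- and at 22.4 and 35.8 CPM in *Lmo2*Tg;*p21*-/- libraries, 4.94-fold lower (log2 fold change -2.30, SE 0.32; edgeR adjusted p = 0.000310). *Cd3g* was at 1075 and 1047 against 326 and 363.5 CPM, 3.08-fold lower (-1.62, SE 0.11; adjusted p = 2.28e-06). *Zap70* was at 61.6 and 61.3 against 129 and 141 CPM, 2.20-fold higher (1.14, SE 0.09; adjusted p = 7.96e-06).

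The other members were as follows. *Cd3e* was at 439 and 423 CPM in *p21*-/- libraries and at 285 and 320.2 CPM in *Lmo2*Tg;*p21*-/- libraries (-0.51, edgeR adjusted p = 0.00152). *Cd3d* was at 328 and 343 against 239 and 244.5 CPM (-0.47, adjusted p = 0.00128). *Lcp2* was at 229.6 and 212 against 342 and 304 CPM (0.55, adjusted p = 0.00114). *Lck* was at 1183 and 1091 against 845 and 913 CPM (-0.37, adjusted p = 0.0125) and did not pass without *p21*-/- replicate 1 (adjusted p = 0.0849) or without *Lmo2*Tg;*p21*-/- replicate 1 (adjusted p = 0.102). *Cd247* (0.00, interval -0.21 to 0.22) and *Lat* (0.07, interval -0.13 to 0.28) did not pass.

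**Figure D3:**
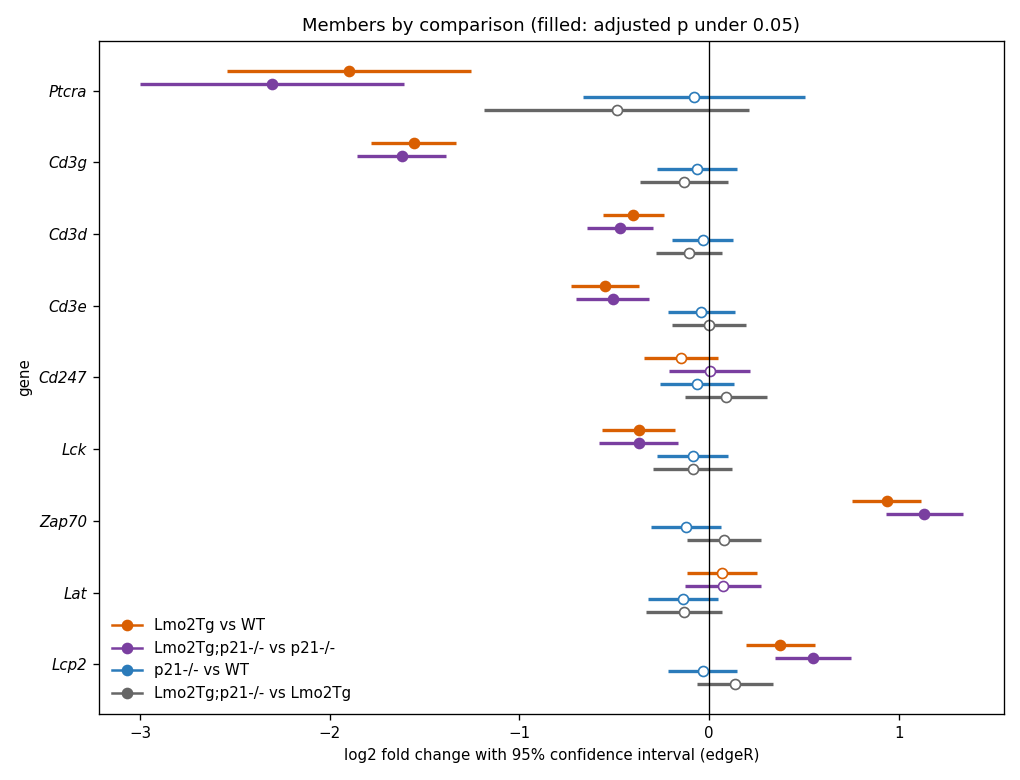
Log2 fold change (x axis) of each member (y axis) in 4 comparisons of genotypes, with 95% confidence intervals from edgeR. Filled points passed an adjusted p of 0.05. Filled points appear only in the 2 comparisons of transgenic with non-transgenic libraries, and the intervals of *Cd3g* lie below those of *Cd3d* and *Cd3e* in both.

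Loss of p21 alone asks whether the inhibitor bears on these genes in normal DN3 thymocytes. None of the 9 members passed in *p21*-/- against WT by edgeR, DESeq2 or limma-voom, and none had an unadjusted p under 0.05. Of 11840 genes, 13 passed (0.11%), with 391 (3.3%) at an unadjusted p under 0.05. The 9 estimates were all slightly lower, from -0.14 for *Lat* to -0.03 for *Cd3d* and *Lcp2*, with an adjusted p of 0.984 each. Without WT replicate 3 the estimates of *Ptcra* (0.09) and *Cd3g* turned positive. The intervals of the members other than *Ptcra* lay within -0.32 and 0.15 on the log2 scale. That of *Ptcra* was wider, -0.66 to 0.51.

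Loss of p21 in transgenic DN3 thymocytes, the comparison closest to the question of the study, gave no call among the members either. None passed in *Lmo2*Tg;*p21*-/- against *Lmo2*Tg by edgeR, DESeq2 or limma-voom and none had an unadjusted p under 0.05, against 6.94% of all genes called and 25.5% at that unadjusted p. *Ptcra* was lower by 0.49 on the log2 scale, with an interval from -1.18 to 0.21 (adjusted p = 0.368), and the groups overlapped. Leaving out 1 library moved this estimate between -0.94 and 0.17, the positive value being that without the *Lmo2*Tg library numbered 3. The intervals of the other members lay within -0.36 and 0.34. The difference between the effects of p21 loss with and without the transgene passed for none of the members by any of these tools and had no unadjusted p under 0.05, against 1.38% of all genes called and 18.1% at that unadjusted p. For *Ptcra* this difference was -0.41 (interval -1.32 to 0.50), or -0.85 to 0.25 with 1 library left out, and for *Cd3g* -0.06 (interval -0.38 to 0.25). The interval of *Ptcra* thus spans both no difference and one of over 2-fold.

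Outside the members, 63 genes of the pathway were followed in 5 lists, and all were tested. In *Lmo2*Tg against WT, 32 passed, 27 higher and 5 lower, with a median log2 fold change of 0.24 against -0.37 for the members. This is 50.8% of the list against 36.6% of all genes. The lists were chosen with earlier results of these data known, so this and later shares of the lists are descriptions only. Among proximal kinases and phosphatases, 3 of 10 were higher and 1 lower. *Txk*, a Tec-family kinase, rose 4.39-fold from 6.87 to 30.2 CPM (adjusted p = 6.74e-06), *Ptpn22*, a phosphatase that restrains Lck and ZAP-70, 1.47-fold and the Src-family kinase *Fyn* 1.34-fold, while *Syk* fell, as given above. Among adaptors and exchange factors, 5 of 17 were higher and none lower. *Grb2*, which links LAT to Ras activation, rose 1.89-fold from 173 to 326 CPM, *Sh2d1a* (SAP) 1.62-fold, *Rasgrp1*, a Ras exchange factor, 1.61-fold and *Plcg1*, the phospholipase recruited by LAT, 1.31-fold.

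In the NF-kB and calcium branch, 4 of 11 genes were higher and 2 lower. *Bcl10* rose 1.70-fold, *Prkcq*, a protein kinase C that acts upstream of it, rose 1.39-fold, and the calcium channel gene *Itpr1* fell from 191 to 118 CPM (1.63-fold). Of 14 negative regulators, 6 were higher and 2 lower. *Ubash3b* (Sts-1), a phosphatase that acts on ZAP-70 and Syk, rose 3.94-fold from 4.51 to 17.8 CPM, the adaptor *Dok2* 2.09-fold, *Lax1* 1.99-fold and the diacylglycerol kinase *Dgka* 1.77-fold. Of 11 co-receptors and costimulators, 9 were higher and none lower. *Cd2* was 16.6-fold higher (4.15 to 68.9 CPM), *Cd8a* 3.90-fold, *Cd6* 3.36-fold and *Cd5*, which dampens TCR signals, 2.63-fold. The transgene itself is driven by CD2 regulatory sequences, and its part in the *Cd2* reads was not tested.

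In *Lmo2*Tg;*p21*-/- against *p21*-/-, 34 of the 63 passed, 29 higher and 5 lower (54.0% against 30.7% of all genes). *Txk* was 5.07-fold, *Ubash3b* 5.89-fold, *Dok2* 2.50-fold, *Lax1* 2.37-fold and *Grb2* 2.00-fold higher. *Rasgrp1*, *Sh2d1a* and *Plcg1* were higher by 0.82, 0.77 and 0.53 on the log2 scale, *Ptpn22* and *Fyn* by 0.74 and 0.36, *Prkcq* and *Nfatc2* by 0.66 and 0.64, and *Dgka* by 1.11. *Cd2* was 9.81-fold, *Cd6* 3.16-fold, *Cd5* 3.09-fold and *Cd8a* 2.70-fold higher, and *Itpr1* 1.83-fold lower. Few of these genes passed with loss of p21. In *p21*-/- against WT none of the 63 passed by edgeR, DESeq2 or limma-voom (1 with an unadjusted p under 0.05). In *Lmo2*Tg;*p21*-/- against *Lmo2*Tg, *Bcl10* was lower (42.1 against 71.8 CPM, adjusted p = 0.0245) and *Cd48* higher (152 against 124 CPM, adjusted p = 0.0497), both lost without *Lmo2*Tg;*p21*-/- replicate 1, and the difference of the p21 effects passed for none by edgeR (10 with an unadjusted p under 0.05) or limma-voom and for 1 by DESeq2.

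**Figure D4:**
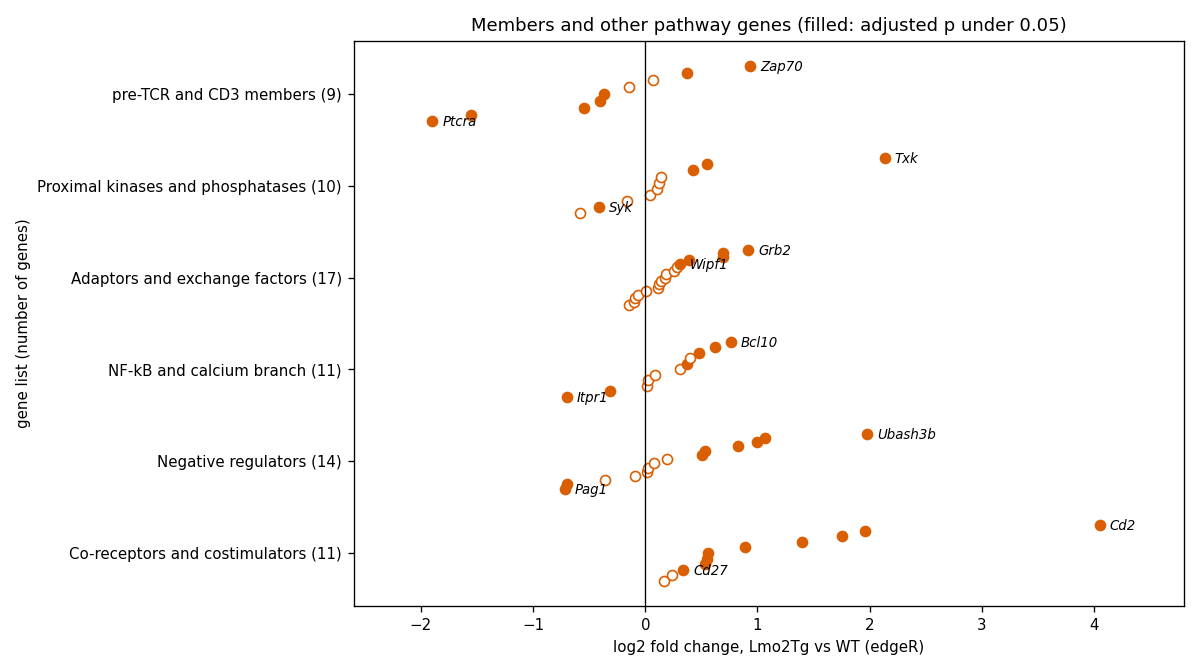
Log2 fold change in *Lmo2*Tg against WT DN3 thymocytes (x axis) of the 9 members and of 63 other genes of the pathway, by list (y axis, with the number of genes). Each point is a gene, filled where the adjusted p was under 0.05, and the lowest and highest called gene of each list are named. Of the called members 5 of 7 lie left of 0, and of the called pathway genes 27 of 32 lie right of it.

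Markers of cell stages differed between the genotypes as well. Of 9 DN3 markers, 5 were lower and 2 higher in *Lmo2*Tg against WT libraries, and their summed level was 6379 to 7117 CPM against 9058 to 9163. *Rag1* fell 2.14-fold, *Rag2* 5.04-fold, *Thy1* 1.72-fold, *Dntt* 1.75-fold and *Notch3* 2.18-fold, while *Hes1* and *Dtx1* rose. *Hes1* was at 107 and 291 CPM in the *Lmo2*Tg libraries against 74.6 to 101 CPM in WT, so its rise came mostly from 1 library. In *Lmo2*Tg;*p21*-/- against *p21*-/- libraries, 5 DN3 markers were lower and 1 higher (6744 to 7002 against 8678 to 9509 CPM). *Hes1* was not called there (log2 fold change -0.49). Of 7 tested markers of the earlier DN1 and DN2 stages, 5 were higher and 2 lower with the transgene, with summed levels of 272 to 391 against 102 to 129 CPM, and without p21 4 were higher and 2 lower (386 to 480 against 121 to 130 CPM). *Hhex* rose from 3.22 to 78.2 CPM, *Lyl1* from 3.75 to 51.4 and *Kit* from 74.5 to 164 CPM in *Lmo2*Tg libraries. These genes are known as targets of LMO2 as well as for their use at early stages. *Mef2c* fell 2.00-fold and *Bcl11a* 2.35-fold, and *Flt3* was at or under 0.228 CPM on average in both groups.

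Markers of double- and single-positive thymocytes, which share *Cd4*, *Cd8a* and *Cd8b1* with the co-receptor list, gave other counts in the 2 contrasts. In *Lmo2*Tg against WT libraries, 4 of 7 tested were higher and 2 lower (summed levels 197 to 243 against 53.6 to 69.0 CPM), with *Cd69* at 129 against 18.4 CPM, *Ccr7* 2.03-fold lower and *Cd4* at 3.38 against 2.88 CPM. In *Lmo2*Tg;*p21*-/- against *p21*-/- libraries, 2 were higher and 1 lower (67.0 to 84.6 against 58.8 to 66.4 CPM), with *Cd69* not called (log2 fold change -0.13) and *Ccr7* 2.18-fold higher. The difference between these contrasts passed for *Ccr7* (edgeR adjusted p = 0.0332) and not for *Cd69* (adjusted p = 0.108).

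Of 5 tested B lineage markers, 2 were lower in *Lmo2*Tg against WT libraries, *Cd79b* and *Blk*, which made up most of the summed 30.3 to 31.0 against 62.6 to 68.2 CPM, while *Ms4a1*, *Pax5* and *Cd22* were under 1 CPM on average. Of 6 tested myeloid and dendritic markers, 3 were higher and 1 lower (28.1 to 31.0 against 18.5 to 25.8 CPM). *Mpo* was at 7.80 against 0.209 CPM, *Itgam* 3.24-fold and *Itgax* 3.43-fold higher and *Lyz2* 2.64-fold lower, with *Elane* and *Siglech* at 0 in *Lmo2*Tg libraries. Of 5 erythroid markers, 1 was higher, and their sum stayed at or below 33.7 CPM in every genotype library. The list of gamma-delta, NK and innate-like cells summed to 310.5 to 391 against 316.5 to 344 CPM, with *Sox13* 2.17-fold and *Zbtb16* 2.32-fold higher, *Gzma* 1.78-fold lower and *Ncr1* at 0. The stromal list summed to 216 to 236 against 200 to 204 CPM, with *Pecam1*, which held most of it, 1.39-fold higher, *Epcam* 2.76-fold lower, *Cdh5* lower and at 0 in *Lmo2*Tg libraries, and *Foxn1* and *Krt5* at 0 in both groups.

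In *Lmo2*Tg;*p21*-/- against *p21*-/- libraries, 2 of the B lineage markers were lower, 2 myeloid markers higher, 2 innate-like markers higher and 1 lower, 1 stromal marker higher and 2 lower, and no erythroid marker passed. The part of the stage and lineage markers in the members' values was not tested.

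Among the other 8985 genes at this level, those whose log2 CPM tracked *Ptcra* most closely over the 9 genotype libraries were *Arhgef10l* (Pearson's r = 0.993), *Ccdc85c*, *Col15a1*, *P3h1* and *Igsf8* (0.987 to 0.988). For the mean of the members, they were *Rcl1* (0.984), *Mvd*, *Neu1*, *Psme1* and *Krtcap2* (0.977 to 0.983). This mean joins opposite profiles, since *Zap70* and *Lcp2* ran against *Ptcra* (r = -0.91 and -0.96), so it stands for no profile common to the members. The points share genotype, with 4 libraries with and 5 without the transgene, and the values describe these libraries only.

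The comparison of GFPhi with GFPlo asks whether cell cycle restriction within *Lmo2*Tg DN3 thymocytes goes with other levels of the same genes. GFPhi replicate 3 stood apart from the other five libraries. It held the highest or the lowest value for 57.3% of all 11581 genes tested, against 22.3% to 37.8% for the others, and for 7 of the 9 members. *Cdkn1a* was at 35.8, 29.9 and 6.56 CPM in GFPhi, the last being replicate 3, and at 12.0, 11.1 and 8.08 CPM in GFPlo libraries. Its change was not called (log2 fold change 1.21, edgeR adjusted p = 0.207). Calls of the members and of the other pathway genes are therefore given with and without GFPhi replicate 3. The test of *Cdkn1a*, the markers and the chromosome values are given with all libraries only. Values from these libraries were counted in a separate table and are not set against those of the genotypes.

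With all 6 libraries, none of the 9 members passed by edgeR or limma-voom, 2 passed by DESeq2 (*Ptcra* and *Lck*), and 3 had an unadjusted p under 0.05 by edgeR. Over all genes, 14.9% passed by edgeR and 33.4% had an unadjusted p under 0.05. By DESeq2 2912 of 11581 genes passed and by limma-voom 1795. *Ptcra* was at 30.8, 34.7 and 48.1 CPM in GFPhi (replicates 1 to 3) and at 23.0, 26.4 and 28.8 CPM in GFPlo libraries. The groups did not overlap, and the log2 fold change was 0.54 (SE 0.19; edgeR adjusted p = 0.103). *Lck* was at 1240, 1200 and 1082 against 1067, 993 and 964 CPM (0.22, SE 0.08; adjusted p = 0.112). *Lcp2* was at 382.5, 354 and 413 against 350.4, 334 and 331 CPM (0.18, SE 0.07; adjusted p = 0.147). These were the 3 members whose groups did not overlap. Of the 63 other pathway genes, 25 showed no overlap as well. The share over all genes was not counted, so the separation cannot be read as particular to these members.

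For *Zap70* and *Cd3d*, GFPhi replicate 3 lay apart from all other libraries. *Zap70* was at 212, 209 and 99.5 CPM in GFPhi and at 178, 169 and 163 CPM in GFPlo libraries, and *Cd3d* at 335, 332.5 and 126 against 316, 289.1 and 289.6 CPM. In both, replicates 1 and 2 lay above all GFPlo libraries and replicate 3 below them. Without replicate 3, *Zap70* (0.31, edgeR adjusted p = 0.00461), *Lck* (0.28, adjusted p = 0.0119) and *Ptcra* (0.34, adjusted p = 0.0492) were higher in GFPhi, *Cd3d* was at 0.17 (adjusted p = 0.0520), and 41.3% of all genes passed. The remaining members did not pass with or without it. *Cd3e* was at 411.5, 359 and 350.3 against 387, 417 and 426 CPM, and *Cd3g* at 537, 460.5 and 626 against 520.5, 558 and 616 CPM. *Cd247* lay between 240 and 282 CPM and *Lat* between 622 and 816 CPM over the 6 libraries.

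**Figure D5:**
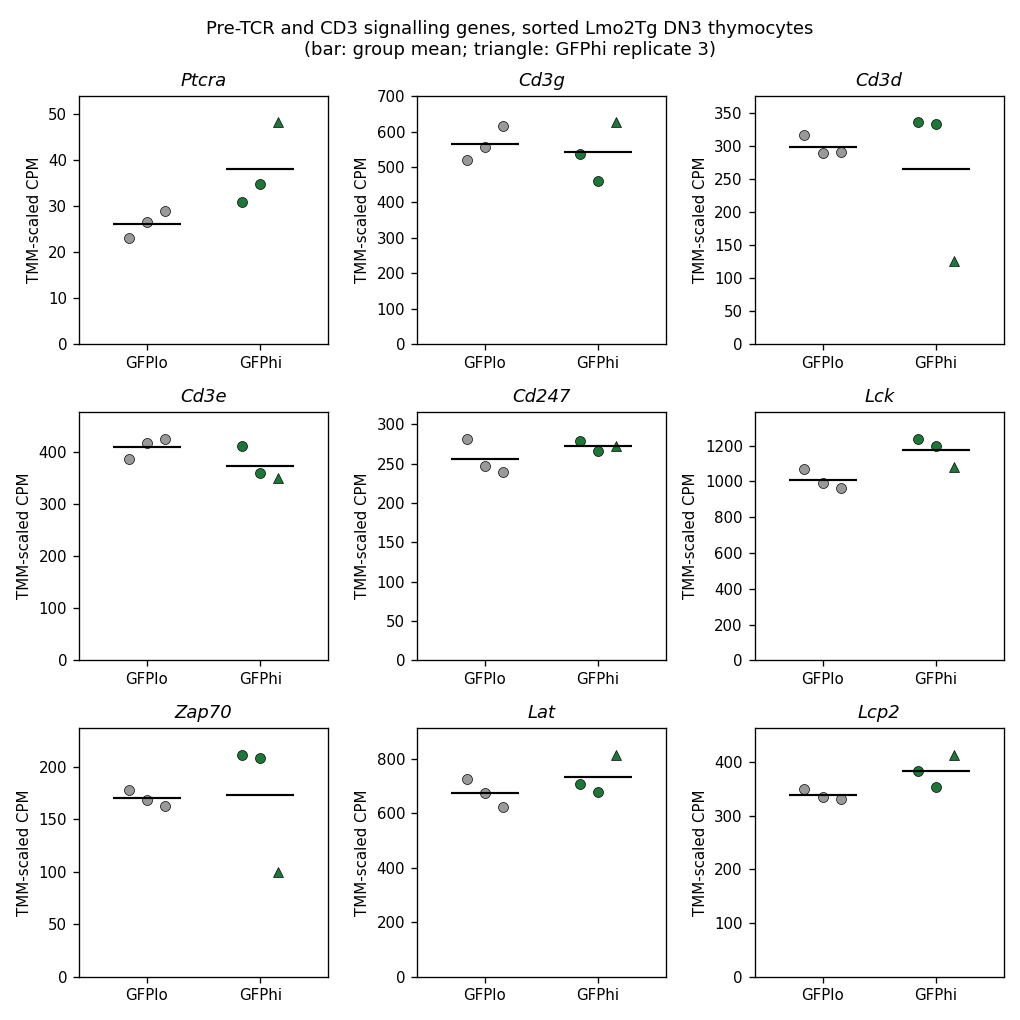
Levels of the 9 members (y axis, TMM-scaled CPM, from 0) in GFPlo and GFPhi libraries of *Lmo2*Tg DN3 thymocytes (x axis). Points are libraries, triangles mark GFPhi replicate 3 and bars are group means. *Ptcra*, *Lck* and *Lcp2* show no overlap between the groups but did not pass by edgeR with all libraries. The triangle lies below all other libraries for *Cd3d* and *Zap70*.

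Of the 63 other pathway genes, 11 passed with all libraries (5 higher and 6 lower in GFPhi, 17.5% against 14.9% of all genes). *Ubash3a* (Sts-2), a negative regulator, was 2.12-fold lower in GFPhi (90.1 against 190.5 CPM), *Syk* 1.97-fold lower (35.3 against 69.7 CPM), the adaptor *Fyb* 1.59-fold, *Grap2* (GADS) 1.39-fold and the ubiquitin ligase *Cblb* 1.36-fold lower. The diacylglycerol kinase *Dgkz* also fell, with a log2 fold change of -0.58 (edgeR adjusted p = 0.0112). *Dusp22*, a phosphatase that acts on Lck, was 2.60-fold higher (5.17 against 1.99 CPM), *Malt1* and *Ly9* 1.46-fold, *Cbl* 1.27-fold and the calcium sensor *Stim1* 1.23-fold higher. Without replicate 3, 37 of the 63 passed, 28 higher and 9 lower, against 41.3% of all genes. The ratio of *Zap70* to *Syk* reads was 2.43 to 2.45 in GFPlo libraries and 2.41 to 7.69 in GFPhi libraries.

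Of the lineage markers, those of B cells were higher in GFPhi, 4 of 8 tested, with summed levels of 49.5 to 81.9 against 42.3 to 46.3 CPM. *Ms4a1* was at 1.87, 7.58 and 2.24 CPM in GFPhi and at 0, 0 and 0.0322 CPM in GFPlo libraries. Of 9 DN3 markers, *Il2ra* alone passed (1.60-fold higher), and the summed level was 8752 to 9707 against 7659 to 8182 CPM. *Kit* was 2.00-fold lower, with summed DN1 and DN2 levels of 289 to 469.5 against 541 to 610.5 CPM. Double- and single-positive markers summed to 103 to 232 against 132 to 154.5 CPM with 2 of 7 tested higher, innate-like markers to 521 to 573 against 443 to 562 CPM with 1 of 4 higher, and stromal markers to 233 to 313 against 233 to 269 CPM with 1 of 3 higher. Myeloid and erythroid markers summed to at most 16.6 CPM, with 1 of 4 and none of 5 tested higher. On chromosome 17, which holds *Ptcra*, 70.6% of 615 genes had a lower estimate in GFPhi (median log2 fold change -0.15), opposite in sign to *Ptcra*. On chromosomes 4 (*Lck*) and 11 (*Lcp2*), 34.75% and 39.7% were lower (medians 0.10 and 0.07), the same sign as these members. The medians were 0.04, 0.06 and 0.05 on chromosomes 1, 7 and 9, the last opposite in sign to the CD3 genes it holds. The part of these in the members' values was not tested.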

How the data were processed

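RNA was captured by poly-A tail from sorted DN3 thymocytes. The authors deposited raw read counts per protein-coding gene, with no normalization, in 2 tables, one per experiment. According to the submitters' processing notes, STAR 2.4.2a, featureCounts, limma and the build mm10 were used. The annotation release is not given in the sources used here, nor is the strand setting beyond the words Reverse (sorted) and No (genotypes) in the names of the tables. Groups came from the labels or, in the genotype table, from the group part of the column names. Both *Lmo2*Tg columns were matched to the group only, since their names also equal the descriptions of 2 GFPlo samples. Of the columns, 1 could not be assigned to a sample and was not used, and 1 labelled *p21*-/- sample had no column. No library pair differed by less than the sampling noise.

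Counts were filtered by filterByExpr (minimum count 10, minimum total 15), which kept 11581 and 11840 genes, scaled by TMM and tested by edgeR 4.0.16 (R 4.3.3, limma 3.58.1) with the quasi-likelihood test and Benjamini-Hochberg adjustment over all genes tested, at an adjusted p of 0.05. GFPhi and GFPlo were fitted in 6 libraries and the genotypes in 9, each table apart, with group as the only term. Levels are CPM of TMM-scaled libraries, and RPKM divides them by exon length. The sorted pools came from independent cohorts per the study's text. For the genotype pools this was not stated, so their p-values may measure technical spread only. Counting error limits low levels, and values under 3 counts are printed as measured. All 9 members were named in each comparison, and up to 4 called genes per pathway list. A few genes that this rule or the marker lists would name are not reported here. The members and gene lists were chosen with earlier results of these data known. Alternatives were limma-voom, DESeq2 1.42.0, RLE size factors, other filters, a 2-fold call rule, each library left out, a replicate block, TMM without chromosomes 2 and 15, and fits of only the groups compared. The fits were tested on simulated data. Gene positions came from GENCODE M21, which matched 98.2% of the identifiers.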

Additional observations from a re-analysis of the deposited data

Results flagged for a closer look

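The drop in reads of *Cdkn1a*, the gene targeted in *p21*-/- mice, differed between backgrounds by the test of the difference itself. *Cdkn1a* was 2.56-fold lower in *p21*-/- than in WT libraries (log2 fold change -1.36) and 7.55-fold lower in *Lmo2*Tg;*p21*-/- than in *Lmo2*Tg libraries (-2.92), a difference of -1.56 on the log2 scale (SE 0.27; edgeR adjusted p = 0.0319). Residual *Cdkn1a* reads were 14.3 and 17.7 CPM in the *p21*-/- libraries and 4.35 and 3.50 CPM in the *Lmo2*Tg;*p21*-/- libraries. With 1 of the 9 genotype libraries left out in turn, an alternative chosen after seeing the data, the difference stayed between -1.73 and -1.39 but passed in 2 of 9 fits (edgeR adjusted p from 0.0124 to 0.130).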

How the results depend on the processing

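The number of members that passed moved by over 1.5 times in 4 fits. For GFPhi against GFPlo, where none passed, DESeq2 called 2, and 2912 of all 11581 genes. Leaving out each library in turn gave 0 to 3, the 3 without GFPhi replicate 3, where 41.3% of all genes passed. When a change of over 2-fold was also asked for, 2 members (*Ptcra* and *Cd3g*) remained in *Lmo2*Tg against WT and 3 (with *Zap70*) in *Lmo2*Tg;*p21*-/- against *p21*-/-. Leaving out each library in turn gave 6 to 7 in both of these, the call lost being that of *Lck*, and 0 in the comparisons of p21 loss and in their difference. In *Lmo2*Tg against WT, *Ptcra*, *Cd3g*, *Cd3e*, *Cd3d*, *Zap70* and *Lcp2* passed in all 11 other fits without the 2-fold rule. No called member changed sign in any fit. Members that passed in neither fit changed sign 42 times, at sizes of at most 0.49.

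The count of pathway genes, whose alternatives were chosen after seeing the data, ranged from 1 to 37 (11 reported) for GFPhi against GFPlo, from 7 to 33 (32 reported) for *Lmo2*Tg against WT, from 10 to 41 (34 reported) for *Lmo2*Tg;*p21*-/- against *p21*-/-, from 0 to 5 (2 reported) for loss of p21 in transgenic cells and from 0 to 2 (0 reported) for the difference. The cause of these shifts was not tested.

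Whether same-numbered libraries share a cohort is not stated. Correlations of their deviations from the group means were 0.07, -0.08 and 0.10 for the sorted libraries. For WT and *p21*-/- they were -0.24 and 0.30. With so few libraries per group the deviations depend on each other, so these values cannot decide whether a number marks a shared cohort. With the replicate block, 0 members passed for GFPhi against GFPlo (496 against 1721 of all genes), 0 for *p21*-/- against WT and 7 for *Lmo2*Tg;*p21*-/- against *p21*-/-, the genotype fits without the *Lmo2*Tg libraries. No paired analysis was possible for contrasts with *Lmo2*Tg because its columns, although numbered, were matched to the group only and not to samples. The limits are 2 libraries in 3 of the 4 genotypes, a GFPhi, a WT and a *Lmo2*Tg;*p21*-/- library that stand apart, and stage markers that differ between the genotypes.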

Other observations

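Genes of the pathway outside the members also set GFPhi replicate 3 apart. This library held the highest or lowest value of the 6 for 65.1% of the 63 pathway genes, against 19.0% to 34.9% in the other five. *Slamf6*, a costimulator of the SLAM family, was at 275, 297 and 25.1 CPM in GFPhi replicates 1, 2 and 3 and at 239, 212 and 204 CPM in GFPlo libraries. *Cd2* was at 177, 188 and 12.9 against 91.3, 62.1 and 58.7 CPM. *Txk* was at 49.0, 51.4 and 7.30 against 25.9, 21.9 and 18.6 CPM. These 3 genes were chosen after their values were seen. Its *Lmo2* level was 285 CPM, against 29.5 to 53.8 CPM in the other five sorted libraries.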
